A study of Mus musculus with 144 samples.

Results

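Probe 1763’s values on the mouse blood microRNA (miRNA) arrays were followed across all groups of the study, together with probe 3001’s and probe 1885’s. The 3 probes were chosen by their measured log2 values in mice given only the dispersion medium (DM, the negative control), which were lower at month 6 than at month 1. They were 3 of the 9 probes called lower in that contrast and 3 of 1262 mouse probes on the array, and the 6 others called lower had log2 differences from -2.31 to -0.62. The choice set no limit on these values, so there is no edge between members and other probes to show. Here a probe is called in a comparison at a fold of 1.5 or more when its p is under 0.05 and stays under 0.10 after Benjamini-Hochberg adjustment over the 742 tested probes.

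The study placed 144 male C57BL/J6 mice in 18 groups of 8, with 1 array per mouse. The animals were 7 weeks old when obtained and received a single agent: DM, MWCNT (multi-walled carbon nanotubes) at 1, 10, 40 or 80 µg, or crocidolite asbestos at 120 µg as the positive control. Blood was taken 1, 6 or 12 months after exposure. Time after exposure and age of the mice cannot be told apart, and each mouse was measured at 1 time only. Mice are numbered within a group only to name them.

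A miRNA is a short RNA that guides a protein complex to messenger RNAs with a matching site, which lowers their translation or stability. RNA from whole blood comes from red cells, platelets, white cells and plasma, so fewer cells of a type and less of a miRNA per cell cannot be told apart. No table used here gives a miRNA name for these identifiers. The 3 probes are therefore given by identifier, with no sequence, seed or role, and blood as the labelled tissue could not be checked against known miRNAs.

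Arrays were alike, with correlations between pairs of arrays from 0.89 to 1.00 over the tested probes. They differed in brightness, the mean log2 intensity of the tested probes before scaling, which ranged from 7.94 to 9.14. The lowest group mean was that of DM at month 6, 8.40 ± 0.36 (SD, n = 8). Values below are log2 intensities after scaling of the arrays to one another. All 3 probes were above the detection threshold on 144 of 144 arrays.

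The probes lay at different heights on the array. Probe-1763 had a median intensity of 27650 units and a median rank of 44 among the 1262 mouse probes (rank 1 is the brightest). Probe-1885 was as bright, with a median intensity of 29496 units and a median rank of 42. Probe-3001 was dimmer, at a median of 248 units and rank 299. Ranks moved between mice: from 1 to 147 for probe-1763, from 1 to 87 for probe-1885 and from 159 to 421 for probe-3001. Spots can saturate at the top of the scanner's range, and at least 1 of the 3 spots did so on 10 arrays for probe-1763, on 15 arrays for probe-1885 and on 0 arrays for probe-3001. On such arrays the measured value is a lower bound.

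**Figure D1:**
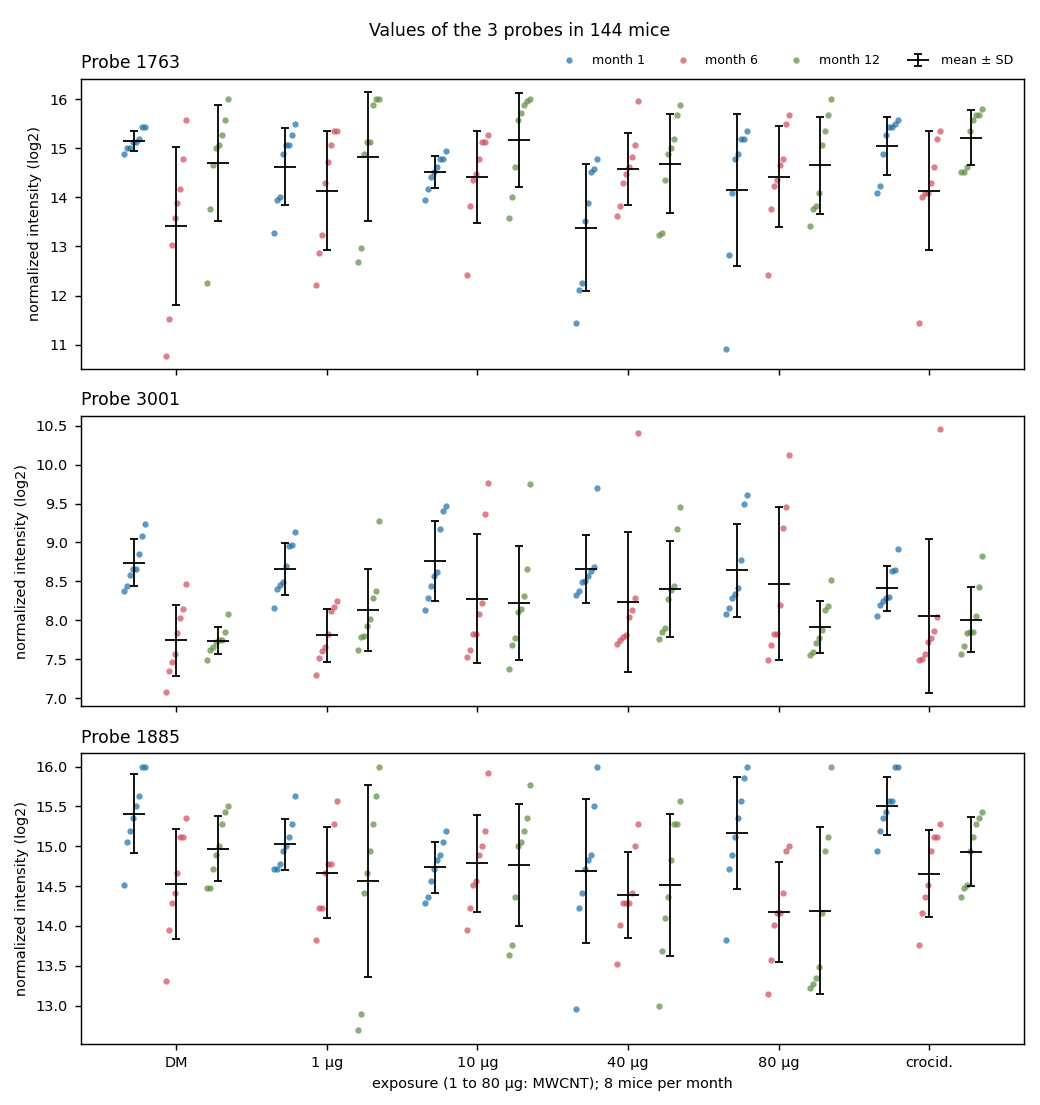
Each point is 1 mouse, plotted as its normalized log2 intensity (y axis) by exposure (x axis) and month (colour), and black bars give the mean ± SD of 8 mice. Values of probe-1763 in DM mice lie close together at month 1 (SD 0.20) and far apart at month 6 (SD 1.61), while probe-3001 in DM mice is still low at month 12 (7.49 to 8.08).

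Probe-1763 had the widest difference of the 3 in DM mice. At month 1 its lowest, median and highest values were 14.89, 15.12 and 15.43. At month 6 they were 10.77, 13.73 and 15.57. Of the 8 mice of month 6, 7 were below the month 1 median, and the groups overlapped because the highest mouse of month 6 was above all mice of month 1. The mean went from 15.15 ± 0.20 (SD, n = 8) to 13.41 ± 1.61, a log2 difference of -1.74 ± 0.52 (SE) or 3.33-fold. In scanner units the median intensity was 42190 at month 1 and 10345 at month 6. This contrast chose the probes, so it is given as a description with no test. Of all 742 probes, 3.1% were called in it and 1.21% were called lower.

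Probe-3001 was below the month 1 median in 8 of 8 DM mice of month 6. Its lowest, median and highest values were 8.38, 8.66 and 9.24 at month 1 and 7.08, 7.70 and 8.47 at month 6. The groups overlapped only at the edge, since the lowest mouse of month 1 was below the highest of month 6. The mean difference was -0.995 ± 0.30 (SE) or 1.99-fold, again as a description.

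Probe-1885 was likewise below the month 1 median in 8 of 8 DM mice at month 6. Its lowest, median and highest values were 14.52, 15.43 and 16.00 at month 1 and 13.30, 14.54 and 15.35 at month 6. The mean difference was -0.88 ± 0.34 (SE) or 1.84-fold. Of the 8 DM arrays of month 1, 3 had a saturated spot of this probe, against 0 of month 6, so the month 1 level is a lower bound on those arrays.

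The 16 DM arrays of months 1 and 6 were not spread evenly over scan days. The first 2 scan days held 6 of the 8 arrays of month 6 and 2 of the 8 of month 1. Arrays of both months were scanned on 4 days, and on each of them all 3 probes were lower at month 6. These differences ranged from -4.29 to -1.31 for probe-1763, from -1.40 to -0.73 for probe-3001 and from -1.97 to -0.45 for probe-1885, and each rests on 2 to 4 arrays. Without the 2 dimmest arrays of month 6 the differences were -1.50, -0.82 and -0.98 for probe-1763, probe-3001 and probe-1885. With brightness as a linear term they were -1.51, -1.03 and -0.89. All these values come from the arrays that chose the probes, so their direction was largely set by the choice. They are descriptions, and the part of scan day in them was not tested.

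At month 12 the 3 probes differed from each other in DM mice. Probe-1763 lay closer to month 1 than to month 6, with lowest, median and highest values of 12.26, 15.03 and 16.00. Its mean of 14.70 ± 1.19 (SD, n = 8) was 0.45 below month 1 and 1.29 above month 6. Of its 8 mice, 5 were below the month 1 median and 3 were below all mice of month 1. Probe-1885 lay between, at 14.47, 14.94 and 15.50, with a mean 0.44 below month 1 and 0.44 above month 6. Probe-3001 did not return. Its lowest, median and highest values were 7.49, 7.73 and 8.08, and its mean differed from month 1 by -1.002 and from month 6 by -0.01. These differences reuse mice of the contrast that chose the probes and carry no test. In DM mice 2.96% of all tested probes were called between months 12 and 1, and 0.27% between months 12 and 6.

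The 120 mice given MWCNT or crocidolite took no part in the choice of the probes, so they answer whether the month 6 values recur in other mice. The mean over the 5 exposures was compared between months with limma, 40 mice against 40. Between months 6 and 1, 0 of the 3 probes were called, beside 0.404% of all tested probes. Of the probes, 2 had an adjusted p under 0.10 with a fold below 1.5, and without the fold limit 31.8% of all tested probes had such an adjusted p.

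Probe-1763 had nearly the same mean over exposures at months 1 and 6, although the 5 exposures went both ways (-0.91 to 1.20). Its lowest, median and highest values were 10.91, 14.70 and 15.57 at month 1 and 11.44, 14.47 and 15.97 at month 6. The difference was -0.01 ± 0.23 (SE, 95% interval -0.45 to 0.44, limma adjusted p = 0.987). It ranged from -0.31 to 0.22 with 1 array or exposure left out, and the difference between group medians, averaged over exposures, was -0.21. The interval does not hold the DM difference of -1.74, but whether exposed and DM mice differ was not tested, because the DM difference chose the probe.

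Probe-3001 was lower at month 6 in exposed mice, by less than the fold limit. Its lowest, median and highest values were 8.06, 8.498 and 9.70 at month 1 and 7.30, 7.82 and 10.45 at month 6. The difference was -0.46 ± 0.14 (SE, 95% interval -0.74 to -0.18, limma adjusted p = 0.0108) or 1.37-fold, and 33 of 40 mice of month 6 were below the month 1 median over exposures. The difference between group medians, averaged over exposures, was -0.60. A permutation of months within exposures (100000 draws, two-sided) gave p = 0.0028 and, over the 9 differences of the 3 probes, an adjusted p of 0.0084.

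Probe-1885 was lower at month 6 in exposed mice by a similar amount. Its lowest, median and highest values were 12.96, 14.97 and 16.00 at month 1 and 13.15, 14.47 and 15.92 at month 6. The difference was -0.49 ± 0.16 (SE, 95% interval -0.80 to -0.18, limma adjusted p = 0.0132) or 1.41-fold, and the permutation test gave p = 0.0004 (adjusted p = 0.0018). Of the 40 exposed arrays of month 1, 8 had a saturated spot of this probe, against 0 of 40 at month 6. On those 8 arrays the value is a lower bound, so the size of the difference may be understated. Leaving out the 17 exposed arrays with a saturated spot of probe-1763 or probe-1885 gave -0.34 (limma adjusted p = 0.131). This alternative was chosen after seeing the data and removes arrays by the measured value, so it takes away high values only.

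Between months 12 and 1 again 0 of the 3 probes were called in exposed mice, beside 2.02% of all tested probes, and 35.4% of tested probes had an adjusted p under 0.10 without the fold limit. Probe-3001 stayed low, at lowest, median and highest values of 7.38, 7.97 and 9.75, a difference from month 1 of -0.49 ± 0.14 (SE, limma adjusted p = 0.00461). Probe-1885 also stayed below month 1, at 12.69, 14.88 and 16.00, a difference of -0.43 ± 0.16 (SE, limma adjusted p = 0.0275). Probe-1763 went the other way. Its values at month 12 were 12.69, 15.12 and 16.00, and its difference from month 1 was 0.56 ± 0.23 (SE, limma adjusted p = 0.049), 1.48-fold and just under the fold limit. Without the same 17 arrays the difference was 0.25 (limma adjusted p = 0.598), but leaving them out takes away high values. Saturated spots of probe-1763 occurred on 8 exposed arrays of month 12, against 1 of month 1. Values on those arrays are lower bounds, so the difference of 0.56 over all arrays may be an underestimate. It passed the limits without any one of 16 arrays (0.59 to 0.62): 1 µg month 1 mouse 6 and month 12 mice 2 and 8, 10 µg month 12 mice 3 and 5, 40 µg month 1 mice 2, 6 and 8 and month 12 mice 1 and 8, and 80 µg month 1 mice 1, 5 and 6 and month 12 mice 2, 3 and 8. Without the 40 µg exposure it was 0.38 (adjusted p = 0.299) and without 10 µg 0.54 (adjusted p = 0.117), while it passed without 1 µg (0.65) or crocidolite (0.66). For probe-1885 the difference was -0.30 without 80 µg (adjusted p = 0.22) and -0.40 without crocidolite (adjusted p = 0.11).

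Between months 12 and 6 probe-1763 was higher in exposed mice by 0.57 ± 0.23 (SE, limma adjusted p = 0.113), while probe-3001 and probe-1885 differed by -0.03 ± 0.14 and 0.06 ± 0.16. None was called, beside 0.135% of all tested probes, and 10.5% had an adjusted p under 0.10 without the fold limit. In exposed mice the median of probe-1763 was thus highest at month 12 (15.12), and 8 of 40 arrays had a saturated spot of it there, against 1 of 40 at month 1 and 0 of 40 at month 6. With scan day as a term the difference of probe-1763 between months 12 and 6 was 0.73 (limma adjusted p = 0.215), and with brightness 0.45 (adjusted p = 0.272). Of 100 alternatives with a p, 76 had an adjusted p of 0.10 or more and 24 a lower one. This difference was not taken within scan days. In the permutation test this difference had p = 0.0134 (adjusted p = 0.0202 over the 9 differences of the 3 probes). It passed the limits without any one of 18 arrays (0.59 to 0.63): 1 µg month 6 mice 1, 4 and 7 and month 12 mice 2 and 8, 10 µg month 6 mouse 2 and month 12 mice 3 and 5, 40 µg month 6 mouse 5 and month 12 mice 1 and 8, 80 µg month 6 mice 2 and 6 and month 12 mice 2, 3 and 8, and crocidolite month 6 mice 2 and 5. It also passed without the 40 µg (0.69) or the 80 µg (0.66) exposure. Without the 17 arrays with saturated spots, an alternative that takes away high values, it was 0.34 (limma adjusted p = 0.526).

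**Figure D2:**
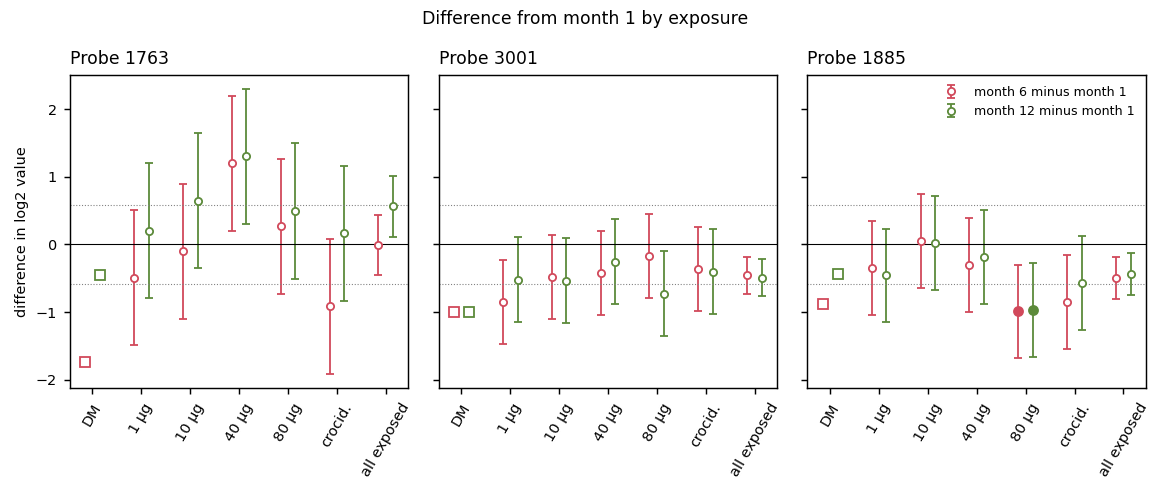
Log2 differences (y axis) of month 6 (red) and month 12 (green) from month 1 are plotted by exposure (x axis), with 95% intervals from limma, filled where called and dotted lines at the 1.5-fold limit. DM mice, which chose the probes, are open squares with no interval; for probe-3001 all 5 exposures lie below 0 at both months, and probe-1885 with 80 µg MWCNT is the filled pair (-0.99 and -0.97).

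Within single exposures 1 of 15 differences between months 6 and 1 was called, and 1 of 15 between months 12 and 1. Both were probe-1885 in mice given 80 µg MWCNT. Its lowest, median and highest values there were 13.82, 15.24 and 16.00 at month 1, 13.15, 14.16 and 14.997 at month 6 and 13.22, 13.82 and 16.00 at month 12. At month 6, 8 of 8 mice were below the month 1 median, and at month 12, 7 of 8. The differences were -0.99 ± 0.35 (SE, limma adjusted p = 0.0495) and -0.97 ± 0.35 (adjusted p = 0.0486). In this exposure 7.14% of all tested probes were called at month 6 and 4.72% at month 12, while the other exposures had 0.27% to 3.37% at month 6 (0.809% with 10 µg) and 1.21% to 1.35% at month 12. Between months 12 and 6, 0 of 15 differences were called, beside 0% to 0.135%. The month 6 call was lost without 80 µg month 6 mouse 3 (-0.84, adjusted p = 0.114) or month 1 mouse 3 (-0.89, adjusted p = 0.168). The month 12 call was lost without month 12 mouse 2 (-0.84, adjusted p = 0.106), mouse 3 (-0.84, adjusted p = 0.104), mouse 6 (-0.85, adjusted p = 0.112) or mouse 8 (-0.87, adjusted p = 0.105), or without month 1 mouse 3 (-0.88, adjusted p = 0.139). Both calls were also lost with scan day as a term (adjusted p = 0.106 and 0.141) and with the test between 2 groups of the study's methods (adjusted p = 0.282 and 0.246). The month 6 call was lost in the deposited table (-0.85, adjusted p = 0.1002) and with trimmed-mean scaling (-0.80, adjusted p = 0.126), and the month 12 call with brightness as a linear term (-0.95, adjusted p = 0.107).

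Probe-1885 was not called in the other exposures. With crocidolite it was lower at month 6 by a log2 difference of -0.85 ± 0.35 (SE, limma adjusted p = 0.286), with 8 of 8 mice below the month 1 median. With 10 µg MWCNT its difference was 0.05 ± 0.35. The crocidolite mice of month 1 had the highest group mean of this probe (15.51 ± 0.37, SD, n = 8), with a saturated spot on 4 of 8 arrays.

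Probe-3001 was below month 1 in 5 of 5 exposures at both later months, with no single exposure called. The month 6 differences ranged from -0.85 with 1 µg to -0.17 with 80 µg MWCNT, and the month 12 differences from -0.73 with 80 µg to -0.26 with 40 µg. With 1 µg at month 6, where the mean was 7.81 ± 0.34 (SD, n = 8), the limma adjusted p was 0.50, beside 0.27% of all tested probes called. With 80 µg at month 12 it was 0.105, and this difference passed the limits without 1 µg month 12 mouse 6, 10 µg month 12 mouse 3, 80 µg month 1 mouse 7 or 8 or 80 µg month 12 mouse 6 (-0.81 to -0.73, adjusted p = 0.0703 to 0.0994).

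Probe-1763 had no common direction at month 6. Its differences from month 1 ranged from -0.91 with crocidolite to 1.20 with 40 µg MWCNT. The 40 µg mice of month 1 were the lowest group of all for this probe, with lowest, median and highest values of 11.44, 13.71 and 14.78. Their mean differed from that of the 8 DM mice of month 1 by -1.76, which carries no test because it reuses those DM mice. In that comparison 0% of all tested probes were called. The difference from this low start to month 6 was 1.20 ± 0.50 (SE, limma adjusted p = 0.117) and to month 12 it was 1.30 ± 0.50 (adjusted p = 0.121). Both passed the limits without 40 µg month 1 mouse 2, 6 or 8 (1.36 to 1.40 with adjusted p = 0.0547 to 0.0709, and 1.46 to 1.499 with adjusted p = 0.0592 to 0.0752). Both also passed without 80 µg month 1 mouse 3, which leaves the differences as they are (adjusted p = 0.0841 and 0.0826). The first passed without 40 µg month 6 mouse 2 (1.34, adjusted p = 0.0829), and the second without 40 µg month 12 mouse 1 or 8 (1.51 and 1.504, adjusted p = 0.0739 and 0.0972).

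Whether the month differences depended on the exposure was tested with an F test of the 8 interaction contrasts among exposed groups. The limma adjusted p was 0.868 for probe-1763, 0.945 for probe-3001 and 0.913 for probe-1885. Of all tested probes 0% passed, and none of the 3 had an unadjusted p under 0.05.

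Scan day differed between months in part, so the exposed differences were also taken within scan days. They were taken within pairs of array positions too, which were nearly balanced. Positions A or C held 17, 16 and 16 of the 40 exposed arrays at months 1, 6 and 12. Probe-3001 was lower than month 1 on 5 of 5 scan days at month 6 (-0.69 to -0.25) and on 5 of 5 at month 12 (-1.89 to -0.26). Probe-1885 was lower on 4 of 5 scan days at each month, from -0.90 to 0.20 at month 6 and from -1.83 to 0.53 at month 12. Probe-1763 was lower on 2 of 5 scan days at month 6 (-0.86 to 0.84) and on 1 of 5 at month 12 (-1.22 to 1.01). For each probe the lowest month 12 value came from the same scan day, with 3 arrays of month 12 and 1 of month 1. That 1 array was 40 µg month 1 mouse 8, whose probe-3001 value of 9.70 lay far above the others of its group. Within both pairs of array positions, probe-3001 and probe-1885 were lower than month 1 at both later months.

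Compared with DM mice of the same month, exposed mice gave no call at month 12, the month whose DM mice took no part in the choice. Of 15 comparisons, 0 were called by limma and 2 had an unadjusted p under 0.05. Of all 742 tested probes, 33 had such a p with 40 µg, 44 with 80 µg and 13 to 38 in the other exposures. In each exposure 0% of all tested probes were called at month 12. The 2 comparisons were probe-3001 with 40 µg MWCNT, higher by 0.67 ± 0.30 (SE, adjusted p = 0.899), and probe-1885 with 80 µg MWCNT, with a difference of -0.78 ± 0.34 (SE, adjusted p = 0.717). Probe-3001 had a higher mean in 5 of 5 exposures than in DM (0.18 to 0.67), and probe-1885 a lower mean in 5 of 5 (-0.78 to -0.04). These 5 comparisons share the same 8 DM mice. For probe-1763 the differences ran from -0.05 to 0.52, with 95% intervals reaching from -1.07 to 1.54. DM, 10 and 80 µg arrays lay mostly at positions A and C and the other exposures mostly at B and D, so position and exposure cannot be fully told apart here.

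**Figure D3:**
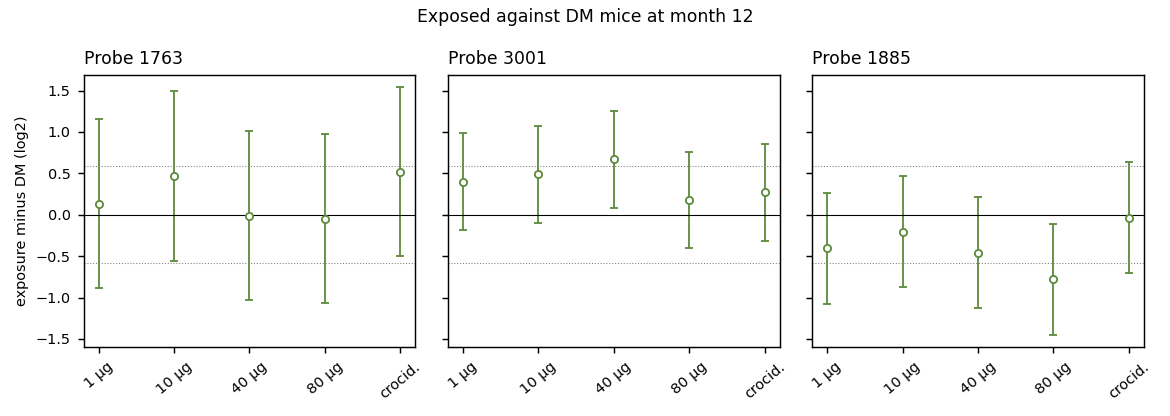
Log2 differences of exposed minus DM mice at month 12 (y axis) by exposure (x axis), 8 mice against 8, with 95% intervals from limma and dotted lines at the 1.5-fold limit. All points of probe-3001 lie above 0 (0.18 to 0.67) and all points of probe-1885 below (-0.78 to -0.04), and none was called.

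At month 6, beside the low DM values, probe-1763 was higher in 5 of 5 exposures than in DM (0.72 to 1.17) and probe-3001 in 5 of 5 (0.06 to 0.73), while probe-1885 ranged from -0.35 to 0.26. At month 1, beside the high DM values, probe-1763 was lower in 5 of 5 exposures (-1.76 to -0.09). These values reuse the mice that chose the probes and have no test.

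Over all 18 groups the means of probe-1763 ran from 15.22 ± 0.57 (SD, n = 8) with crocidolite at month 12 to 13.39 ± 1.29 with 40 µg MWCNT at month 1, with DM at month 6 next to it at 13.41 ± 1.61. Those of probe-3001 ran from 8.76 ± 0.52 with 10 µg MWCNT at month 1 to 7.74 ± 0.46 and 7.74 ± 0.17 in DM at months 6 and 12. Those of probe-1885 ran from 15.51 ± 0.37 with crocidolite at month 1 to 14.18 ± 0.63 with 80 µg MWCNT at month 6, with DM at month 6 at 14.53 ± 0.69. For each probe, all 17 gaps between neighbouring group means were smaller than the spread between mice of the neighbours. Small gaps are likely among 18 sorted means, so this does not show whether groups differ.

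The 3 probes varied more between mice of 1 group than most probes did. The residual SD between mice was 1.04 for probe-1763, 0.60 for probe-3001 and 0.68 for probe-1885, against a median of 0.22 over all tested probes. This put them at the 99.6th, 95.0th and 96.6th percentile of the tested probes. Between the 3 spots on an array the SD was smaller, at 0.14, 0.31 and 0.16. Spread also differed between groups. The SD of probe-1763 was 0.20 in DM mice at month 1, the smallest of the 18 groups, and 1.61 in DM mice at month 6, the greatest. Both are groups of the contrast that chose the probes.

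Spread did not follow month in the same way for each probe. In exposed mice the SD within groups of probe-3001 was 0.45 at month 1, 0.84 at month 6 and 0.55 at month 12. The highest mice of month 6 were at 10.45 with crocidolite, 10.40 with 40 µg and 10.12 with 80 µg MWCNT, against a median of 7.82 in the 40 exposed mice. The SD of probe-1885 was 0.57, 0.58 and 0.91 at months 1, 6 and 12, and that of probe-1763 was 1.01, 1.04 and 1.00.

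Array brightness was then compared with the probes in the 120 exposed mice. Within groups the slope on brightness was 0.85 ± 0.48 (SE) log2 units per log2 unit for probe-1763 (limma adjusted p = 0.133), -0.37 ± 0.30 for probe-3001 (adjusted p = 0.312) and -0.12 ± 0.34 for probe-1885 (adjusted p = 0.792). None passed an adjusted p of 0.10, which 54.3% of all tested probes did. The slope of probe-1763 passed it under some settings, with values up to 1.08 (adjusted p = 0.0624) with scan day as a term. Without 80 µg month 1 mouse 3 it was 0.55 (adjusted p = 0.344).

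Correlations were taken on group-centred values. Pearson's r with brightness over 120 exposed mice was 0.17 for probe-1763 (permutation p = 0.082), -0.12 for probe-3001 (p = 0.211) and -0.04 for probe-1885 (p = 0.717). Spearman's rho was 0.15 (permutation p = 0.132), -0.13 (p = 0.155) and -0.003 (p = 0.976). With the 2 arrays farthest in brightness left out, r was 0.20, -0.14 and -0.01. Within the 6 scan days with enough arrays, r was positive on 4, 2 and 4 days for probe-1763, probe-3001 and probe-1885. Adjusted over the 3 relations tested, the lowest p was 0.246 for Pearson's r and 0.232 for Spearman's rho.

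In the 8 DM mice of month 6, the dimmest group, r with brightness was 0.47 for probe-1763, 0.72 for probe-3001 and -0.07 for probe-1885. Spearman's rho was 0.36, 0.69 and -0.18. These mice chose the probes, so the correlations are descriptions with no test. Without the 2 arrays farthest in brightness, r was 0.28, 0.54 and 0.31. The part of brightness in the low DM values of month 6 was not tested.

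**Figure D4:**
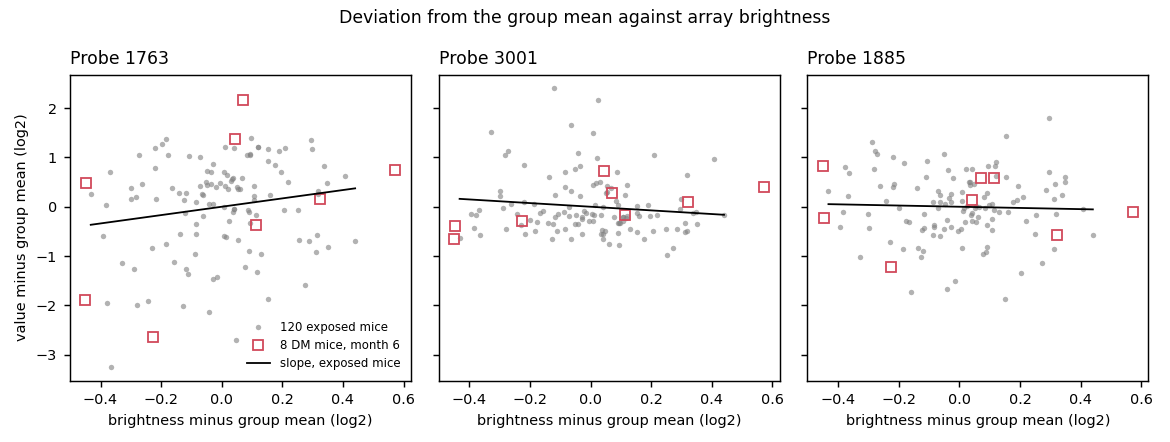
Deviation of each mouse from its group mean in log2 value (y axis) against the deviation of array brightness (x axis), for 120 exposed mice (grey) and 8 DM mice of month 6 (red squares), with the limma slope of exposed mice as a line. The slopes are 0.85, -0.37 and -0.12, and the points of probe-3001 show a few high mice at all brightness levels.

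Among themselves the 3 probes were weakly to moderately correlated. Over deviations from group means in 120 exposed mice, r was 0.41 between probe-1763 and probe-1885, 0.17 between probe-1763 and probe-3001 and 0.06 between probe-3001 and probe-1885. Each had closer companions among the other probes, given as descriptions over arrays that share scaling. Over the 18 group means, the most alike were probe 1847 for probe-1763 (r = 0.81), probe 1084 for probe-3001 (r = 0.86) and probe ORB_1112342 for probe-1885 (r = 0.97). Over deviations in exposed mice they were ORB_0608032 for probe-1763 (r = 0.76), probe 2955 for probe-3001 (r = 0.83) and ORB_0608009 for probe-1885 (r = 0.90).

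The companions were picked for these likenesses, so what they share with a member was fixed by the choice. Probe 1084 had means of 9.89 ± 0.23, 8.14 ± 0.58 and 8.12 ± 0.34 (SD, n = 8) in DM mice at months 1, 6 and 12, and of 9.70, 8.53 and 8.41 in 40 exposed mice each. Like probe-3001, it was lower at both later months in DM and in exposed mice. Probe 2955 was also lower at both later months in DM mice, with means of 9.37 ± 0.87, 7.95 ± 1.51 and 8.15 ± 1.14 (SD, n = 8). In exposed mice it was not, at 8.87, 8.90 and 9.33. It also followed single mice. The 3 mice highest in probe-3001, all at month 6, had values of 11.69, 11.74 and 11.69 of probe 2955, each the highest of its group of 8. Probe ORB_1112342 had means of 12.25 ± 0.30, 11.52 ± 0.64 and 11.85 ± 0.44 (SD, n = 8) in DM mice, the same order of months as probe-1885, and of 11.94, 11.56 and 11.53 in exposed mice. Probe 1847 had DM means of 13.21 ± 0.37, 12.79 ± 0.97 and 13.03 ± 0.77 (SD, n = 8), lowest and most spread at month 6 like probe-1763. In exposed mice its means were 12.99, 13.12 and 13.33, with the widest spread at month 1 (SD 0.74, n = 40).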

How the data were processed

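Blood RNA of 144 mice was hybridised to 1-colour miRNA arrays with 3 spots per mouse probe. The authors extracted spots with GenePix, and the deposited scans give each spot's median foreground and local background intensity, linear and not normalized. Of the scans, 42 were used and 1, taken at another gain, was not. The deposited value table holds log2 normalized intensity, made by the authors from background-subtracted, trimmed-mean-scaled spots. It equalled the recomputed values plus 1 constant per array (SD of the difference at most 1.21e-09), which settles scale, direction and mapping.

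From the deposited intensity values, a normexp correction with offset 50 was made (limma 3.58.1, R 4.3.3), spots marked bad were left out, log2 spots were averaged and arrays were quantile normalized over 1262 mouse probes. Fold changes, which include the offset, understate those of dim probes. A probe was tested when above threshold (10% trimmed mean of 21 empty spots plus 5 SD) on all 8 arrays of 1 group, which kept 742 probes (58.8%). After quantile normalization a value depends on the rank of the probe on its array. The number of arrays limits the precision.

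Groups came from the labels, which do not say whether arrays of a group differ in more than the mouse. Exposed mice were fitted alone (120 arrays, 15 group means, lmFit and eBayes), and comparisons with DM at month 12 used all 144 arrays. All tests were two-sided. The fit was also tested on simulated data with independent noise and no scan-day or slide effects. The simulated month differences were larger than the members' mean differences in exposed mice. Brightness correlations used permutation tests with 100000 draws within groups of exposed mice. The members, comparisons and lists were chosen with earlier results of these data known. Besides the 3 members, 1 probe per member was named for the highest correlation over group means and 1 over deviations in exposed mice. A list of blood cell miRNAs could not be looked up, since no table used here names the probes. Alternatives covered background, scaling, the deposited table, filters, spot averaging, slide, scan day, position, brightness, the samples in the fit and the test. Median differences, the permutation of months, batch terms for the DM differences and leaving out the 21 arrays with a saturated spot of probe-1763 or probe-1885 were added after seeing the data.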

Additional observations from a re-analysis of the deposited data

Results flagged for a closer look

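In 5 of 54 sets of 8 mice (3 probes in 18 groups), 1 mouse lay far from the others, by a gap of more than 0.526 of the range of the group. Chance alone flags about 1 in 20 such sets. Of the 5, 4 were high values of probe-3001: 9.70 in 40 µg MWCNT month 1 mouse 8 (next mouse 8.69), 10.40 in 40 µg month 6 mouse 4 (next 8.29), 10.45 in crocidolite month 6 mouse 4 (next 8.05) and 9.27 in 1 µg month 12 mouse 6 (next 8.38). The fifth was a low value of probe-1763, 11.44 in crocidolite month 6 mouse 1, against 14.02 in the next mouse. The brightness of these 5 arrays, between 8.41 and 8.87, was inside the range of all arrays.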

How the results depend on the processing

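No paired analysis was possible because the labels give no replicate numbers that pair mice across groups, so no replicate block was fitted. Of 1753 alternative values of 20 results, 1670 counted as the same and 83 did not. The limits judged tested values only. Scaling by a trimmed mean in place of quantiles moved the median of all tested probes between months 6 and 1 by 0.19 in exposed and 0.36 in DM mice. In the deposited table this median was 0.19 and 0.32. The differences given under these scalings are not corrected for that shift.

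Choosing the probes largely set the sign of the DM difference (month 6 minus 1). It was -1.91 to -1.39 for probe-1763, -1.17 to -0.75 for probe-3001 and -0.98 to -0.60 for probe-1885 over settings. With 1 DM array left out it was -2.04 to -1.36, -1.10 to -0.90 and -1.01 to -0.70.

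In single exposures, the number of calls between months 12 and 1, 1 as reported, was 0 with the 2-group ANOVA of the methods or scan day as a term, 2 with all 144 arrays in the fit, the deposited table, an offset of 10, trimmed-mean scaling or slide as a random block, and 3 with only probes above threshold on all arrays. Between months 6 and 1 it was also 1, and 0 with scan day and 2 with that ANOVA, the background subtraction of the methods, trimmed-mean scaling, brightness as a term, probes above threshold on all arrays or slide as a block. With 1 mouse left out both ranged from 0 to 2. These counts did not always hold probe-1885 with 80 µg, not called at month 6 with the ANOVA, trimmed-mean scaling, scan day or the deposited table, nor at month 12 with the ANOVA, scan day or brightness. The other calls were probe-1763 with 40 µg (the 1 call in the deposited table at month 6 and with brightness at month 12), probe-3001 with 80 µg or 1 µg, and probe-1885 with crocidolite. No alternative gave a call for members between months 12 and 6, against DM at month 12 or for month by exposure.

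Probe-1763 in exposed mice, month 12 minus month 1, passed the fold limit with scan day (0.60), slide (0.59) or without the 4 redipped arrays (0.62). It also did so without any one of 16 arrays (0.59 to 0.62). Leaving out an array or an exposure gave 0.38 to 0.66, the lowest without 40 µg (adjusted p = 0.299), and for month 12 minus month 6 0.44 to 0.69, passing without any one of 18 arrays (0.59 to 0.63). Probe-3001, month 12 minus month 1, passed it with the background subtraction of the methods and in the deposited table (-0.60 in both). Probe-1885, month 6 minus month 1, ranged from -0.63 to -0.37 with 1 array or exposure left out, and passed without 10 µg. Its adjusted p exceeded 0.10 without 80 µg (0.119) or crocidolite (0.125), and that of probe-3001 at month 6 without 1 µg (0.116).

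Leaving out the 21 arrays (17 exposed) with a saturated spot of probe-1763 or probe-1885, an alternative added after seeing the data, moved the exposed differences of probe-1763 to 0.25 (month 12 minus 1, adjusted p = 0.598) and 0.34 (month 12 minus 6, adjusted p = 0.526), that of probe-1885 at month 6 to -0.34 (adjusted p = 0.131) and the DM difference of probe-1885 to -0.60. The differences of probe-3001 (-0.47 and -0.49) and of probe-1885 at month 12 (-0.49) kept an adjusted p under 0.10. These arrays are picked by the values compared, and saturation was commonest at month 12 for probe-1763 and at month 1 for probe-1885, so it removes high values unevenly between months.

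The brightness slope of probe-1763 passed with all 144 arrays (0.86), array position (1.02), trimmed-mean scaling (0.94) or scan day (1.08), and ranged from 0.55 to 0.98 with 1 array left out, passing without crocidolite month 12 mouse 5 (0.98) or 10 µg month 12 mouse 5 (0.98). That of probe-3001 passed with trimmed-mean scaling (-0.62).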
